A study of Mus musculus with 29 samples.

Results

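Melanoma cells of the mouse line NMM, whose NRAS is mutant, were given interferon gamma (IFNγ) for 24 h and compared with the same cells in medium alone. The comparison took 8 of the 29 mRNA libraries of the series, chosen by the stimuli in their labels. In 4 of them the cells had been kept in medium for 2, 6, 12 or 24 h, washed, and given IFNγ at 100 ng/ml for 24 h. The other 4 had the same hours in medium and the same washes and then received medium again for 24 h. Every library came from this line in culture medium with fetal calf serum and antibiotics, so the controls share the mutation and had no cytokine at any time. Further groups of 4, with the same hours, were used beside them: TGFβ at 10 ng/ml first and then IFNγ or medium for 24 h, medium first and then TGFβ for 24 h, and IFNγ first and then medium for 24 h. Each number of hours was measured in 1 library per stimulus, so durations take the place of replicates. No label says that the libraries came from separate cultures, and the p-values may therefore rest in part on technical spread alone.

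IFNγ is made by T cells and natural killer cells. It binds a receptor built from IFNGR1 and IFNGR2 chains, whose kinases JAK1 and JAK2 start the signal. Genes that answer it directly often carry a palindromic DNA element called GAS, the gamma-activated site. Among them is the gene of the transcription factor IRF1, which binds a related element, the ISRE or interferon-stimulated response element, and carries the response on to further genes. In tumour cells IFNγ is best known for raising antigen presentation and T cell attracting chemokines, for raising the inhibitory ligand PD-L1, and for slowing growth or killing cells in some lines.

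Totals ran from 18304327 to 23147045 counts in the IFNγ libraries and from 17179530 to 21075151 in the medium libraries. The 6 h medium library stood apart: the SD of its log2 distances from the mean of its group was 0.596, where the other 3 medium libraries had 0.320 to 0.361, and its share of mitochondrially encoded transcripts was 1.24%, against 0.841% to 0.868%. IFNγ libraries had mitochondrial shares of 0.676% to 0.814%. Where this library changes a call or moves a value far, the value with it omitted is given too. Of the melanocyte markers, Mitf, Pax3 and Tfap2a were measured, while Sox10, Pmel, Kit and Mc1r were at or near 0 in all 8 libraries (at most 0.444 CPM, the count scaled to a common library size). The deposited counts held 19 of the 26 melanocyte markers listed, and Tyr, Tyrp1, Dct and Mlana were not among these 19. Leukocyte markers summed to 40.7 to 71.3 CPM in the IFNγ libraries and 56.0 to 83.2 CPM in the medium libraries over 12 genes, most of it from Cd14, and the pan-leukocyte gene Ptprc reached at most 0.111 CPM. Nras itself had 93.7, 84.7, 89.1 and 93.3 CPM in the IFNγ libraries of 2, 6, 12 and 24 h and 90.5, 106, 90.4 and 92.1 CPM in the medium libraries in the same order, and did not pass the test (log2 fold change -0.0703, SE 0.0546, adjusted p = 0.319). In bulk libraries a change in the cells that make a transcript and a change in RNA per cell cannot be told apart.

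After IFNγ, 3388 of 14935 tested genes were higher than after medium and 3159 were lower, which is 22.7% and 21.2% of those tested, or 43.8% together (edgeR's quasi-likelihood test, adjusted p below 0.05 after Benjamini-Hochberg adjustment over all tested genes). The median log2 fold change over all tested genes was -0.00962. Large rises and large falls were about equally frequent at 2-fold, with 583 genes at least 2-fold higher and 673 at least 2-fold lower, but beyond 16-fold there were 47 higher and 20 lower. The direction was the same at all 4 durations for 3170 of the genes called higher and 2877 of those called lower. Over all tested genes, the 4 IFNγ libraries lay wholly above the 4 medium libraries for 2708 (18.1%) and wholly below for 2411 (16.1%). Without the 6 h medium library 3034 genes (20.3%) were higher and 2800 (18.7%) lower; 2832 and 2610 of these were called in the same direction with all libraries, and 0 genes were called in opposite directions.

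The receptor and its kinases are where the signal enters. Of 17 tested genes of the receptor and JAK-STAT list 7 rose, 5 fell and 5 did not pass, with a median log2 fold change of 0.16. The feedback inhibitor Socs1, which binds the receptor's JAK kinases, had 28.6, 20.0, 29.1 and 27.0 CPM in the IFNγ libraries of 2, 6, 12 and 24 h, against 6.76, 4.39, 4.88 and 6.70 CPM in the medium libraries (log2 fold change 2.21, SE 0.157, adjusted p = 4.37e-10). All 4 IFNγ libraries were well above all 4 medium libraries. Socs3, an inhibitor of the same family, rose by 2.06 (SE 0.154), and Jak2 rose by 0.87 (SE 0.0836) on the log2 scale. Cish, Stat3, Ptpn2 and Ptpn11 rose by 0.8, 0.76, 0.74 and 0.14, but Cish was not called without the 6 h medium library (0.61). The receptor chains went the other way, with log2 fold changes of -0.27 for Ifngr1 and -0.5 for Ifngr2, and the phosphatase gene Ptpn6, Pias3 and Socs2 fell as well (-0.71, -0.34 and -1.04). Among those that did not pass were Stat2 (0.16), Jak1 (0.0314), Pias1 (-0.0781) and the deconjugase gene Usp18 (0.67).

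Interferon regulatory and partner transcription factors rose in 10 of 14 tested cases and fell in 0, with a median of 1.43. Irf1 (chr11:53770014-53778374) had 509.8, 465, 532 and 513 CPM in the IFNγ libraries of 2, 6, 12 and 24 h, against 47.6, 20.0, 41.6 and 44.7 CPM in the medium libraries (log2 fold change 3.72, SE 0.278, adjusted p = 9.58e-10). Batf2, a basic leucine zipper factor that partners IRF1 in macrophages, had 58.5, 50.8, 76.8 and 74.4 CPM after IFNγ, against 0.411, 0.0578, 0.0987 and 0.332 CPM after medium (log2 fold change 8.11, SE 0.454, adjusted p = 1.02e-11). For both genes the groups were far apart at every duration. Nlrc5, the activator of MHC class I genes, rose by 1.6 (SE 0.247). Ciita, its counterpart for MHC class II, was counted 32 times in the IFNγ libraries and 0 times in all 4 medium libraries, so it was at least 10.6-fold higher, measured against a floor of 3 counts over the group. Even so it stayed under 1 CPM, 1 IFNγ library held no count of it, and of 5 MHC class II genes only H2-DMa could be tested, at 0.0732 (adjusted p = 0.91). Etv6 rose by 0.31. Irf9, Irf7 and Irf3 did not pass, at 0.21, 0.14 and -0.0434.

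**Figure D1:**
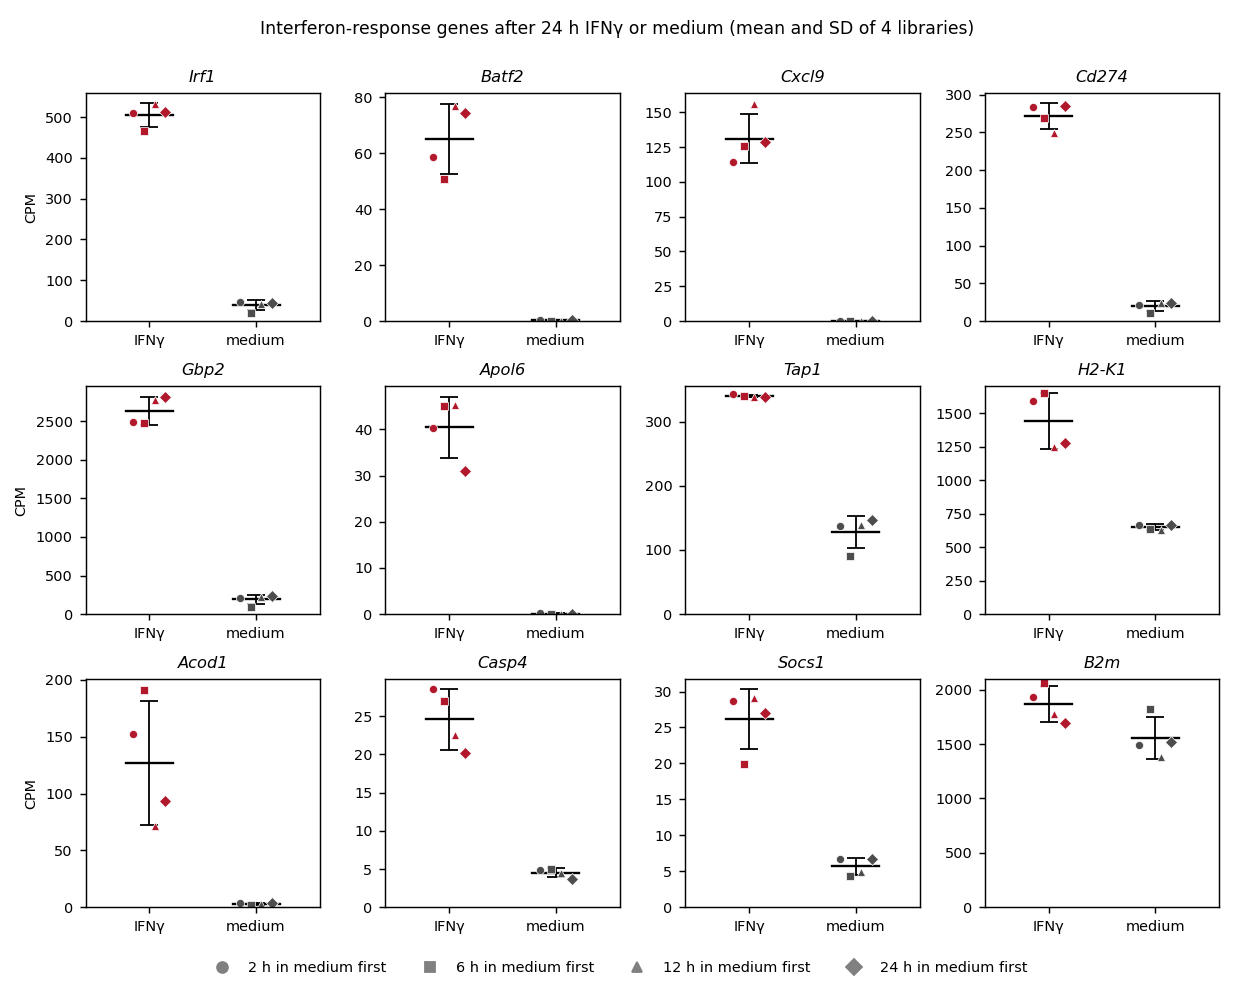
CPM of 12 genes in the 4 libraries given 24 h IFNγ (left, red) and the 4 given medium (right, grey), with symbols for the hours in medium beforehand; lines and bars are the mean and SD of 4 libraries. Irf1, Batf2, Cxcl9, Cd274, Gbp2, Apol6, Tap1, H2-K1, Acod1, Casp4 and Socs1 show 2 separate groups, with the 6 h medium library lowest for Irf1, Gbp2 and Tap1, while the groups of B2m overlap.

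The promoters of some of these genes show GAS or ISRE elements. The stretches are printed to show how these elements sit before genes that the results turn on. Windows from 250 bases before to 50 bases after each start site came from RefSeq (GRCm38.p6), and the letters searched were TTCNNNGAA for GAS, which reads the same on both strands, and GAAANNGAA for the core of the ISRE, on both strands. Each stretch below is 60 bases of the gene's own strand, 5′ to 3′, upstream of the start site, with matches in capitals; matches that overlap run together. Positions count back from the start site.
Irf1, chr11:53769894-53769953, plus strand, 1 GAS match: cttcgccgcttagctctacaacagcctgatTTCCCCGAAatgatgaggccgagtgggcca
Serpina3f, chr12:104214394-104214453, plus strand, overlapping GAS and ISRE matches: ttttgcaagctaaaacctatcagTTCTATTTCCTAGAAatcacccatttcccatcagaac
Socs1, chr16:10785587-10785646, minus strand, a pair of overlapping ISRE matches: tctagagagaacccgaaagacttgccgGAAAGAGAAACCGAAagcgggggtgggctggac
Gbp2, chr3:142620573-142620632, plus strand, 1 ISRE match: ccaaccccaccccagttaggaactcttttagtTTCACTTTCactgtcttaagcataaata
Cd274, chr19:29367328-29367387, plus strand, 1 ISRE match: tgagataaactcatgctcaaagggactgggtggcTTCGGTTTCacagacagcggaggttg
Cxcl9, chr5:92328220-92328279, minus strand, 1 ISRE match: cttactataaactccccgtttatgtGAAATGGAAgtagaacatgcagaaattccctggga
Cxcl10, chr5:92349070-92349129, minus strand, 1 ISRE match: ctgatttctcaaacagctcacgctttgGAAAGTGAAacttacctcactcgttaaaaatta
B2m, chr2:122147522-122147581, plus strand, 1 ISRE match: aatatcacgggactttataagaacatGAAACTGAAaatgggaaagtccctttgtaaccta

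In these windows the Irf1 match began -90 bases from the start site, counted along the gene, and the Gbp2, Cd274, Cxcl9 and Cxcl10 matches at -58, -76, -175 and -213. B2m, which did not pass the test, holds such a match too, at -139. Tap1, Psmb9, Ubd, Casp4 and Acod1, which rose, hold neither motif in this window. Of windows of genes called at least 4-fold higher, 28 of 183 (15.3%) held a GAS match and 35 (19.1%) an ISRE match. Over the windows of all tested genes with an entry the shares were 6.87% and 7.18%, and over all RefSeq windows 8.3% and 8.56%. Of windows of genes called at least 4-fold lower, 11 of 133 (8.27%) held a GAS match and 12 (9.02%) an ISRE match. All genes called higher had 7.73% and 8.37%, and all called lower 6.34% and 5.78%. Of the 14935 tested genes 10072 had a window by symbol, so these shares describe the matched genes only.

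Many of the largest rises were in genes close to silent in medium. Serpina3f, a serine protease inhibitor, was counted 721 times after IFNγ and 0 times in the medium libraries, at least 239-fold higher against the same floor. Cxcl9, a chemokine that draws T cells through the receptor CXCR3, had 114, 126, 156 and 129 CPM after IFNγ, against 0.229, 0, 0.345 and 0.166 CPM after medium (log2 fold change 9.42). Apol6, an apolipoprotein L gene, had 40.4, 45.0, 45.2 and 31.1 CPM after IFNγ, against 0.183, 0.116, 0.0987 and 0.111 CPM after medium (log2 fold change 8.21, SE 0.298, adjusted p = 3.45e-15). Every IFNγ library of these genes held far more than any medium library. Mpeg1, which encodes the pore-forming protein perforin-2, had 256, 227, 182 and 200.4 CPM after IFNγ, against 12.1, 7.22, 12.1 and 12.6 CPM after medium (log2 fold change 4.25, SE 0.445, adjusted p = 1.31e-07). Krt16, a stress keratin, had 7.59, 7.61, 4.71 and 5.78 CPM after IFNγ, against 0.0914, 0, 0.296 and 0.221 CPM after medium; its log2 fold change of 5.43 became 4.79 without the 6 h medium library and 6.23 without that of 12 h. Trim30c rose by 5.25 (SE 0.688), and by 5.96 without the 12 h medium library.

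Guanylate-binding proteins and immunity-related GTPases, which attack the vacuoles of intracellular microbes, rose together. Of 10 tested guanylate-binding protein genes 9 rose and 0 fell, with a median of 2.59, and all 11 immunity-related GTPase genes rose, with a median of 2.66. Gbp4 (chr5:105115767-105139586) had 347, 284, 405 and 390.2 CPM after IFNγ, against 3.38, 3.52, 4.69 and 3.54 CPM after medium (log2 fold change 6.55, SE 0.425, adjusted p = 1.26e-10). Gbp10 had 44.6, 36.6, 53.3 and 44.6 CPM after IFNγ, against 1.10, 1.44, 1.68 and 1.55 CPM after medium (log2 fold change 4.97, SE 0.307, adjusted p = 6.13e-11). Every IFNγ library was far above every medium library for both, and without the 6 h medium library the fold changes were 6.55 and 4.97. Gbp2 had 2484, 2469, 2775 and 2809 CPM after IFNγ, against 212, 97.9, 221 and 233 CPM after medium (log2 fold change 3.74, SE 0.658, adjusted p = 7.73e-05). Gbp3 was the member that did not pass, at 1.28. Members of these families, and of the Serpina3, Ly6, Schlafen, Ifit and Ifi200 families, are close copies of each other, so the split of reads between them is uncertain. Tgtp1 rose by 4.15 (SE 0.348), Gm12250 by 5.1 (SE 0.466) and Irgm1, a regulator of the others, by 1.71 (SE 0.453). Without the 6 h medium library 9 guanylate-binding protein genes and 10 of the immunity-related GTPases were called.

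MHC class I genes rose in part. Of 16 tested chains 8 rose and 0 fell, with a median of 1.13, and 6 were called without the 6 h medium library. The classical heavy chain H2-K1 had 1594, 1653, 1250.5 and 1276 CPM after IFNγ, against 669.8, 637, 631 and 667 CPM after medium (log2 fold change 1.1, SE 0.311, adjusted p = 0.00623). The libraries of 2 and 6 h were the higher ones after IFNγ, and the medium libraries lay close together. H2-Q7, a non-classical chain, rose by 2.42 (SE 0.520), H2-Q6 by 2.18 and H2-Q4 by 1.7; reads of this family can be split between near-identical members, so single values are uncertain. B2m, the light chain that all of them need, had 1931, 2061, 1777 and 1689 CPM after IFNγ and 1495, 1824, 1383 and 1517 CPM after medium (log2 fold change 0.26, SE 0.256, adjusted p = 0.437). The groups overlapped through the 6 h medium library. B2m passed in a fit of the 8 libraries alone, where the spread does not draw on the other groups.

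Of 14 genes for making, trimming and loading MHC class I peptides 11 rose and 0 fell, with a median of 1.22, and 8 were called without the 6 h medium library. Psmb9, an immunoproteasome subunit, had 96.9, 98.6, 107 and 101 CPM after IFNγ, against 19.8, 8.26, 17.3 and 18.1 CPM after medium (log2 fold change 2.67, SE 0.459, adjusted p = 6.16e-05). The peptide transporter gene Tap2 rose by 1.98 (SE 0.227) and the peptide editor Tapbpl by 2.15 (SE 0.161). Tap1 had 343, 339, 339 and 338 CPM after IFNγ, against 137, 90.5, 138 and 146 CPM after medium (log2 fold change 1.37, SE 0.465, adjusted p = 0.0197). The groups did not overlap, but Tap1 missed the threshold without the 6 h medium library (1.12) and also without the 2 h medium (1.24), 12 h IFNγ (1.2) or 24 h IFNγ library (1.22). Psmb8 missed it in the same cases, with 1.6 on all libraries and 1.42, 1.41, 1.35 and 1.43 when those 4 were left out in turn. The SE and adjusted p of both genes rest on a spread estimated over all 29 libraries, other stimuli included. With only the 8 libraries in the fit, both kept their call. Of the 14 constitutive 20S proteasome subunits 11 rose and 0 fell by small amounts (median 0.21), such as Psma4 at 0.4 and Psmb2 at 0.32; Psmb5, the subunit that Psmb8 replaces in the immunoproteasome, stood at 0.0381.

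Chemokines rose in 8 of 12 tested cases and fell in 0 (median 1.89). Besides Cxcl9, Cxcl11 rose by 5.23 (SE 0.460), and Cxcl10, which binds the same receptor CXCR3, had 1126, 994, 1034 and 1192 CPM after IFNγ, against 155, 37.1, 186 and 198 CPM after medium (log2 fold change 2.76, SE 0.669, adjusted p = 0.0018). Medium libraries already held Cxcl10, and that of 6 h the least of it. The monocyte attractant Ccl2 had 143, 127, 77.5 and 97.4 CPM after IFNγ, against 11.1, 6.30, 9.96 and 11.3 CPM after medium (log2 fold change 3.45, SE 0.347, adjusted p = 7.24e-08), and Ccl5 rose by 1.74 (SE 0.408). Ccl2 and Ccl5 were both lower in the 12 and 24 h IFNγ libraries than in those of 2 and 6 h.

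Ligands and enzymes that restrain T cells were called higher in 9 of 17 cases and lower in 3 (median 0.48), against 22.7% and 21.2% over all genes. Cd274, which encodes PD-L1, had 284, 269, 249 and 284 CPM after IFNγ, against 21.1, 10.8, 24.5 and 24.5 CPM after medium (log2 fold change 3.7, SE 0.419, adjusted p = 3.51e-07). Fgl2, a secreted inhibitor of T cells, rose by 3.73 (SE 0.410), and by 4.43 without the 24 h medium library. Ido1, the tryptophan-degrading enzyme, was counted 123 times after IFNγ and 0 times in medium, at least 40.7-fold higher, but at 1.38, 1.34, 1.98 and 1.61 CPM it stayed low. Vsir, which encodes the checkpoint VISTA, fell by 1.47 on the log2 scale (SE 0.376) from levels under 1 CPM. Of 8 genes for ligands that stimulate lymphocytes 5 rose and 0 fell, and 3 were called without the 6 h medium library. They include Il15 and its presenting receptor Il15ra, by 4.0 (SE 0.651) and 3.69 (SE 0.299), and Clec2d, a ligand of a natural killer cell receptor, by 1.87. Of 4 tested Ly6 surface protein genes 3 rose, among them Ly6a by 2.49 and Ly6c1 by 3.26. Ly6i, at 3.71, rested on 20 counts after IFNγ, 12 of them in the 12 h library, and 1 after medium. It lost its call with DESeq2 and without the 12 h IFNγ (2.56) or 12 h medium library (3.05).

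Of 38 tested antiviral genes best known from type I interferon, 10 rose, a share near the 22.7% over all genes, and 3 fell, below the 21.2% over all genes, with a median of 0.48; without the 6 h medium library the counts were 5 and 3, with a median of 0.24. Ifit2 had 2176, 1854, 2269 and 2908 CPM after IFNγ, against 585, 403, 619.9 and 645 CPM after medium (log2 fold change 2.03, SE 0.467, adjusted p = 0.00111), and Mx1 rose by 1.9 (SE 0.554) but missed the threshold without the 24 h IFNγ library (1.36). Oas1a, Oas2, Oas3, Ifit1, Isg15, Ddx58 and Bst2 were among the 25 that did not pass. These named genes had log2 fold changes from -0.34 for Oas2 to 0.66 for Ifit1 and were picked after their values were seen. Others of the 25 lay outside that range: Ifit3b at 1.21 (SE 0.628), Ifit3 at 1.19 (SE 0.661), Xaf1 at 0.76 (SE 0.495) and Ifitm3 at -0.38 (SE 0.155). Ifi27l2a fell by 1.36 (SE 0.448); it lost its call without the 2 h IFNγ library (-1.14) or the 12 h medium library (-1.17). Interferon-inducible PARP genes rose in 3 of 8 cases, and 0 were called without the 6 h medium library, where Parp14 stood at 1.22. With all libraries Parp14 was at 1.45, and it also missed the threshold without the 2 h medium (1.27), 12 h IFNγ (1.28) or 24 h IFNγ library (1.2).

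Schlafen genes rose in 6 of 8 cases (median 1.3), led by Slfn1 at 3.66 (4.28 without the 24 h medium library), and Slfn5 had 36.7, 28.4, 29.0 and 39.1 CPM after IFNγ, against 7.68, 8.26, 9.72 and 7.92 CPM after medium (log2 fold change 2.04, SE 0.436, adjusted p = 5.81e-04). Of 14 genes of the Ifi200 family and of DNA sensing 7 rose and 0 fell (median 1.2). Ifi205 had 280.0, 251, 277 and 317 CPM after IFNγ, against 29.3, 7.34, 32.2 and 37.7 CPM after medium (log2 fold change 3.33, SE 0.601), and 3.91 without the 24 h medium library. In the ubiquitin-like conjugation list 7 of 16 rose and 0 fell. Ubd, an ubiquitin-like protein that marks targets for the proteasome, was counted 70 times after IFNγ and 0 times in medium, at least 23.2-fold higher.

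Several effector enzyme and complement genes rose from very low levels, and others fell. Among 15 effector and amino acid enzymes 7 rose and 4 fell. Acod1, which makes the antimicrobial metabolite itaconate in macrophages, had 152, 191, 71.3 and 93.6 CPM after IFNγ, against 3.43, 1.96, 3.06 and 3.71 CPM after medium (log2 fold change 5.32, SE 0.509, adjusted p = 3.83e-08). Its level was higher in the 2 and 6 h IFNγ libraries than in those of 12 and 24 h. Nos2, the inducible nitric oxide synthase, was carried by 1 library: 8, 6, 169 and 19 reads were counted in the IFNγ libraries of 2, 6, 12 and 24 h and 0, 0, 2 and 0 in the medium libraries, a ratio of 100.2 with a 95% counting interval of 27.4 to 833 that covers counting error only. Its log2 fold change of 6.03 became 4.58 without the 12 h IFNγ library and 7.02 without the 12 h medium library. Arg1, the arginase that competes with NOS2 for arginine, fell by 4.79 (SE 0.806), to at most 0.178 CPM after IFNγ against 0.641 to 5.72 CPM after medium; without the 6 h medium library the change was -3.78, and without the 2 h IFNγ library -6.45. Of 13 complement genes 4 rose and 2 fell, shares near the 22.7% and 21.2% over all genes. Serping1, the C1 inhibitor, was counted 56 times after IFNγ and 0 times in medium, at least 18.5-fold higher, and the components C1s1 and C4b rose by 4.44 and 4.09, or 5.03 without the 6 h medium library and 4.93 without that of 24 h. The regulator Cd59a fell by 2.59 (SE 0.294).

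Genes of lytic and apoptotic death were more often called higher than lower. Of 18 caspases, gasdermins and lytic effectors 11 rose and 3 fell (median 0.68), against 22.7% and 21.2% over all genes. Casp4, the sensor of cytosolic lipopolysaccharide, had 28.6, 27.0, 22.5 and 20.1 CPM after IFNγ, against 4.94, 4.97, 4.49 and 3.65 CPM after medium (log2 fold change 2.47, SE 0.268, adjusted p = 2.02e-07). Casp12 rose by 1.97 (SE 0.200), and Gsdme, a pore-forming gasdermin, fell by 0.79. Among 13 death receptors and ligands 7 rose and 0 fell: Tnfsf10, the death ligand TRAIL, had 25.6, 18.9, 24.3 and 31.7 CPM after IFNγ, against 2.51, 0.982, 2.66 and 3.05 CPM after medium (log2 fold change 3.48, SE 0.431, adjusted p = 1.13e-06), and Fas rose by 1.31 (SE 0.320) to levels between 1.37 and 2.18 CPM. The BCL2 family had 5 of 16 genes higher and 3 lower, shares near the 22.7% and 21.2% over all genes. The pore-forming Bak1 rose by 0.95 (SE 0.0803) and Bid by 0.48, while the survival gene Bcl2 fell by 0.8 and the BH3-only gene Bmf by 1.85.

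NF-κB subunits, inhibitors and targets rose in 18 of 27 cases and fell in 2 (median 0.46), and 19 rose without the 6 h medium library. Il6 rose by 2.87 (SE 0.515), Traf1 by 1.75 and Vcam1, an adhesion molecule for leukocytes, by 1.36. Icam1, another such molecule, was too low to be tested. Csf2 was called lower (-1.32), but 6 of the 8 libraries cost it the call when left out, with values from -1.07 to -1.37. Of 39 genes read as output of the MAPK pathway, which mutant RAS drives, 22 rose and 6 fell (median 0.33). The immediate early genes Egr1, Jun and Egr2 rose by 1.64, 1.37 and 1.33 (SE 0.248, 0.129 and 0.193), and the feedback inhibitor Spry1 fell to 13.0, 12.7, 13.9 and 14.0 CPM after IFNγ, against 48.6, 102, 36.0 and 32.3 CPM after medium (log2 fold change -1.98, SE 0.235, adjusted p = 6.55e-07).

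Cell cycle genes were higher after IFNγ, by small amounts. Of 49 DNA replication and G1/S genes 45 rose and 0 fell, with a median of 0.55, and of 48 mitosis genes 38 rose and 0 fell, with a median of 0.43. Ccne1, the cyclin of the G1/S step, had 88.8, 79.9, 72.8 and 90.2 CPM after IFNγ, against 20.9, 11.8, 23.1 and 25.7 CPM after medium (log2 fold change 2.03, SE 0.213, adjusted p = 1.35e-07). Top2a, a topoisomerase of S and M phase, had 947, 859.6, 999 and 1017 CPM after IFNγ, against 626, 261, 639 and 638 CPM after medium (log2 fold change 0.85, SE 0.138, adjusted p = 3.15e-05). For both genes the 6 h medium library was the lowest by far. Without it 43 G1/S genes rose and 0 fell (median 0.35), and 33 mitosis genes rose and 2 fell (median 0.24). Within durations, the median log2 ratio of the mitosis genes was 1.11 at 6 h and 0.29, 0.27 and 0.3 at 2, 12 and 24 h. Foxm1, a transcription factor of G2/M genes, rose by 0.71.

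Myc and genes of ribosome assembly rose too. Myc had 301, 238, 362 and 419 CPM after IFNγ, against 207, 84.8, 175 and 207 CPM after medium (log2 fold change 1.0, SE 0.123, adjusted p = 1.03e-06), and 32 of 38 ribosome biogenesis and MYC-linked genes rose while 2 fell (median 0.39). Rrp9, for processing of ribosomal RNA, rose by 0.76; the MYC antagonists Mxd1 and Mxd4 moved apart, by 1.98 and -1.14. Brakes of the cycle were called higher in 8 of 18 cases and lower in 4, against 22.7% and 21.2% over all genes. Without the 6 h medium library the counts were 7 and 4. Cdkn1a, which encodes the inhibitor p21, had 157, 148, 143 and 124 CPM after IFNγ, against 102, 117, 106 and 115 CPM after medium (log2 fold change 0.37, SE 0.0968, adjusted p = 0.00339), Rbl1 and Wee1 rose by 1.04 and 0.83, and Gadd45a fell by 1.66 (SE 0.197). Of 23 p53 targets 7 rose and 8 fell, against 22.7% and 21.2% over all genes, the lowest being Sulf2 at -1.22.

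Metabolic lists moved in small steps. Of 42 glycolysis and hypoxia genes 22 rose and 7 fell (median 0.21); Vegfa, the angiogenic factor, fell to 530.2, 692, 475 and 396 CPM after IFNγ, against 1042, 1883, 1048 and 1001 CPM after medium (log2 fold change -1.24, SE 0.107, adjusted p = 7.66e-09), and Ldhb fell by 1.19. Of 46 nuclear genes of oxidative phosphorylation 5 rose and 19 fell (median -0.0913), with Ndufa4 lowest at -0.83 and Cycs, cytochrome c, highest at 0.83. Of 11 mitochondrially encoded transcripts 4 fell and 0 rose, and 2 were called without the 6 h medium library, mt-Nd1 among them (-0.64 with it and -0.49 without). The mitochondrial shares given above for the libraries move with this list. Of 37 sterol and fatty acid genes 5 rose and 13 fell, with the cholesterol exporter Abca1 lowest at -1.91. Of 39 amino acid stress and unfolded protein response genes 21 rose and 1 fell, with 14 higher and 0 lower once the 6 h medium library was omitted; Sdf2l1 and Trib3 rose by 0.99 and 0.9. Of 20 lysosomal genes 1 rose and 7 fell, with cathepsin F, Ctsf, lowest at -2.61.

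Extracellular matrix genes were more often lower than higher after IFNγ. Of 34 collagens and collagen-processing enzymes 3 rose and 21 fell, with a median of -0.72, with 4 higher and 19 lower once the 6 h medium library was omitted (median -0.57). Col3a1, a fibrillar collagen, had 147, 142, 192 and 193 CPM after IFNγ, against 544, 1461, 483 and 481 CPM after medium (log2 fold change -2.08, SE 0.255, adjusted p = 1.03e-06); without the 6 h medium library the change was -1.58. Col12a1 fell by 2.39 (-1.6 without the 6 h medium library) and Col6a3 rose by 1.88. Among 47 proteoglycans and glycoproteins 10 rose and 21 fell. Fn1, fibronectin, had 2409, 2615, 3388 and 2706 CPM after IFNγ, against 5962, 10285, 6269.8 and 5901 CPM after medium (log2 fold change -1.38, SE 0.187, adjusted p = 3.66e-06). Prg4, the joint lubricant lubricin, had 0.0444, 0.336, 0.152 and 0.111 CPM after IFNγ, against 2.06, 51.0, 1.58 and 2.21 CPM after medium, where the 6 h library held most of it; its log2 fold change of -5.78 became -3.86 without that library. Dcn, decorin, fell by 2.14, or -1.54 without it.

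Fibroblast and endothelial markers, which include matrix genes, were lower in sum after IFNγ. They summed to 214 to 257 CPM in the 4 IFNγ libraries and 609 to 1974 CPM in the medium libraries over 14 genes, and in medium the highest was the 6 h library, with the other 3 at 609 to 696 CPM. Of 8 tested, 7 fell and 0 rose, with 4 called lower once the 6 h medium library was omitted. Col3a1, Dcn and Col1a1 belong to both lists, so the lists do not stand apart. Most of each sum was Col3a1, at 142 to 193 CPM after IFNγ and 481 to 1461 CPM after medium. Dcn had 26.0 to 49.2 and 81.1 to 461 CPM. Among the others, Pdgfra overlapped between the groups (6.12 to 11.1 and 6.72 to 11.0 CPM), while Fap did not (1.42 to 2.18 and 2.37 to 6.88 CPM). Col1a1, called at -1.45, missed the threshold without the 2, 6 or 24 h medium library (-1.56, -1.16 and -1.32) and without the 6 or 24 h IFNγ library (-0.88 and -1.23). The endothelial genes Emcn, Tek and Kdr stayed at or below 0.0554 CPM in all 8 libraries and Pecam1 at or below 0.152 CPM, while Plvap fell by 0.55. The part of other cells in these values was not tested. Keratinocyte markers summed to at most 4.79 CPM after IFNγ and 5.28 CPM after medium, and of 2 tested 0 were called.

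The IGF axis and several receptors were also lower. Of 11 IGF-axis genes 2 rose and 8 fell (median -0.61). Igfbp5 (chr1:72857932-72874884), which binds IGF outside the cell, had 88.3, 108, 69.5 and 51.6 CPM after IFNγ, against 568, 4064, 485 and 428 CPM after medium (log2 fold change -3.8, SE 0.406, adjusted p = 1.70e-07), and the change was -2.77 without the 6 h medium library. Igfbp3 rose by 0.99. Megf10, an engulfment receptor, had 6.26, 8.79, 4.21 and 4.56 CPM after IFNγ, against 45.8, 115, 38.3 and 37.7 CPM after medium (log2 fold change -3.26, SE 0.246, adjusted p = 1.02e-09). Cpm, carboxypeptidase M, had 5.11, 6.83, 9.58 and 7.23 CPM after IFNγ, against 40.3, 185, 33.2 and 35.0 CPM after medium, with log2 fold changes of -3.06 and, without the 6 h medium library, -2.44. Cd33, a sialic acid-binding receptor best known from myeloid cells, had 1.47, 1.23, 0.963 and 0.723 CPM after IFNγ, against 7.86, 6.93, 7.20 and 6.70 CPM after medium (log2 fold change -2.69, SE 0.226, adjusted p = 5.35e-09). The change in Cd33 was -2.65 without the 6 h medium library. Penk, which encodes proenkephalin, fell by 2.5 (SE 0.197) and Tmem119 by 2.68 (SE 0.351). Pde3a, Gxylt2, Aox3, Sod3 and the noncoding RNA H19 completed the 12 lowest among the called genes with at least 5 CPM in a group and the same direction at all durations, at -2.75, -2.64, -3.82, -2.5 and -2.84, and at -2.24, -2.0, -2.7, -1.49 and -2.0 without the 6 h medium library. Prg4, Aox3 and H19 reached a mean of 5 CPM only through the 6 h medium library. In the other medium libraries they had at most 2.21, 4.07 and 4.94 CPM, and Sod3 had 4.14 to 6.12 CPM.

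**Figure D2:**
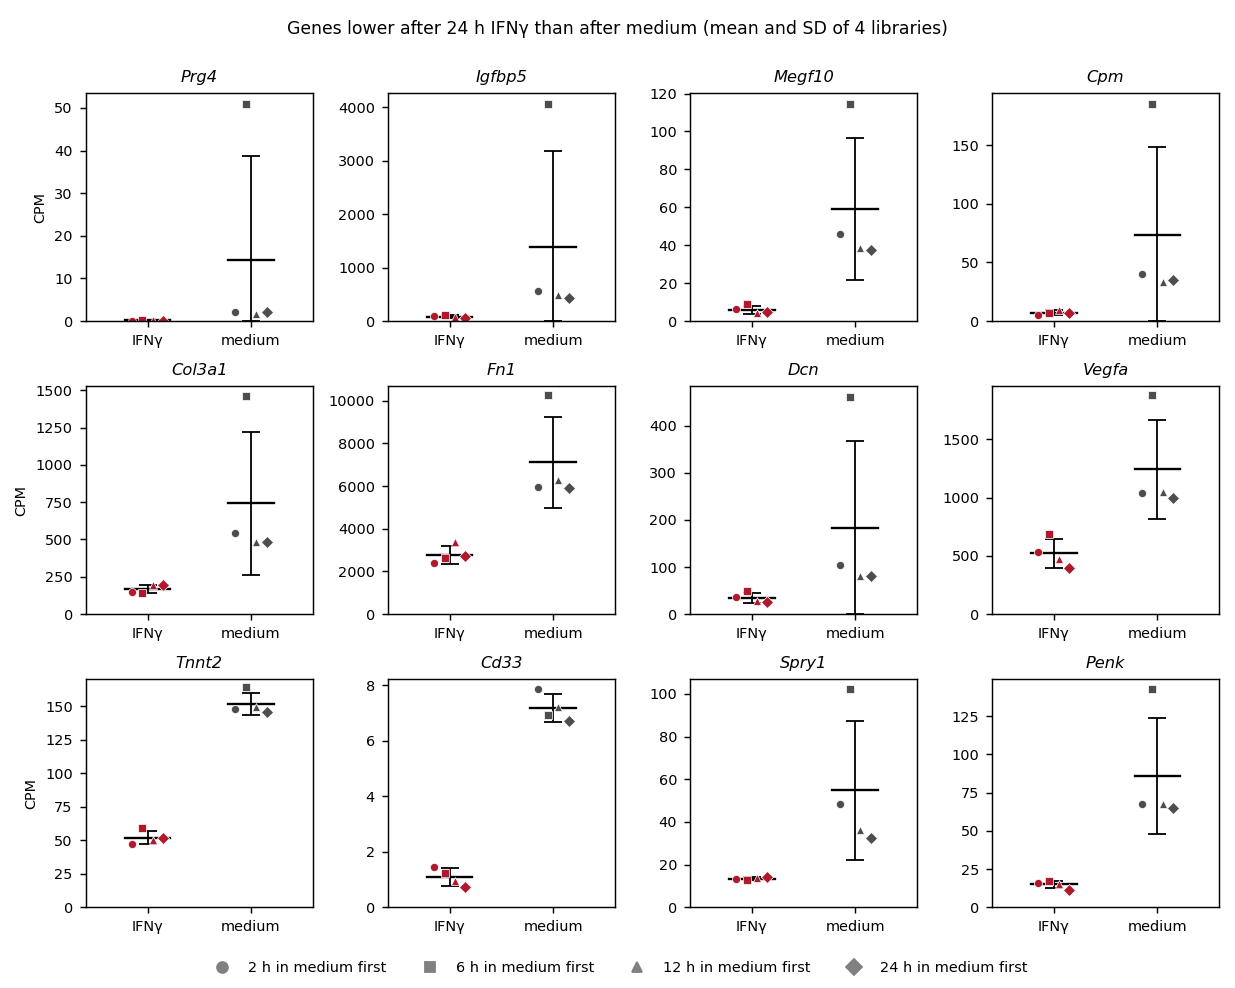
CPM of 12 genes that were lower in the 4 libraries given 24 h IFNγ (left, red) than in the 4 given medium (right, grey), drawn as in the plot of interferon-response genes; lower SD bars end at 0. The 6 h medium library, a square, lies far above the other medium libraries for Prg4, Igfbp5, Megf10, Cpm, Col3a1 and Dcn, while Tnnt2 and Cd33 are separated from the IFNγ libraries at every duration.

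Proteases and their inhibitors were divided, with 11 of 38 higher and 12 lower, against 22.7% and 21.2% over all genes. Besides Serpina3f and Serping1, Serpinb2, the plasminogen activator inhibitor PAI-2, rose by 3.31 (SE 0.392). The macrophage elastase gene Mmp12 fell by 1.59 and did not pass without the 6 h medium library (-0.95). Integrin subunits rose in 6 and fell in 4 of 16 cases, beside the same shares over all genes. Itgb7 stood at 2.97 (SE 0.288) and Itga1 at -2.21 (-1.53 without the 6 h medium library). Itga8 was called lower too, on 1 count in all after IFNγ and 14 after medium (ratio of counts per summed library size 0.0709, 95% counting interval 0.00168 to 0.466). Its log2 fold change of -3.3 became -4.78 without the 12 h IFNγ library, and it missed the threshold without the 6 h medium (-2.68) or the 24 h IFNγ library (-2.87). Of 14 leukocyte adhesion and related genes 4 rose and 7 fell, with 3 higher and 2 lower without the 6 h medium library. Of 27 actin and contractile genes 5 rose and 5 fell, shares near those over all genes (22.7% and 21.2%); Tnnt2, a cardiac troponin, had 47.0, 58.9, 50.4 and 51.7 CPM after IFNγ, against 148, 164, 149 and 146 CPM after medium (log2 fold change -1.55, SE 0.0965, adjusted p = 7.03e-11), and Zyx, zyxin of focal adhesions, rose by 0.92.

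Genes of TGFβ signalling were called higher in 8 of 30 cases and lower in 14, against 22.7% and 21.2% over all genes. Without the 6 h medium library 8 were higher and 11 lower. The median was small, at -0.114 with that library and -0.0627 without it. Fst, follistatin, which binds and blocks activins, had 345, 363, 418 and 384 CPM after IFNγ, against 35.4, 40.0, 38.2 and 38.9 CPM after medium (log2 fold change 3.31, SE 0.149, adjusted p = 2.63e-13). The spread within each group was small against the difference. The co-receptor Tgfbr3 and the latent TGFβ anchor Lrrc32 fell by 1.06 and 1.25, and Bambi, a decoy receptor, rose by 1.02. Of 12 Notch genes 2 rose and 4 fell, against 22.7% and 21.2% over all genes, with Notch1 at 1.26, Dll1 at 1.26 and the target Hes1 at -0.74. The TAM receptor gene Mertk fell by 1.27; of 10 genes in its list 2 rose and 5 fell.

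Markers of melanoma cell state moved in both directions. Mitf, the lineage factor of melanocytes, had 15.1, 18.4, 20.2 and 17.1 CPM after IFNγ and 15.3, 14.8, 14.9 and 12.6 CPM after medium; it was called (log2 fold change 0.29, SE 0.0840, adjusted p = 0.00715), although the 2 h IFNγ library lay inside the range of the medium libraries, and it missed the threshold in 4 other settings: without the replicate block (0.29), with only the 8 libraries in the fit (0.27), and without both 12 h (0.24) or both 24 h libraries (0.24). Of 11 tested melanocyte lineage genes 4 rose and 3 fell, among them the receptor tyrosine kinase Met (0.85) and S100a1 (-0.66). Of 25 neural crest and undifferentiated-state genes 9 rose and 6 fell, led by Prdm1 (3.18) and Nes, nestin (1.22). Over all genes the shares higher and lower were 22.7% and 21.2%. EMT factors and cadherins rose in 3 and fell in 9 of 17 cases, with N-cadherin, Cdh2, at 0.46 and Cdh11 at -1.65. Of 18 reference genes 4 rose and 4 fell, close to the shares over all genes, between Gusb at -0.56 and Polr2a at 0.3 among those called.

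**Figure D3:**
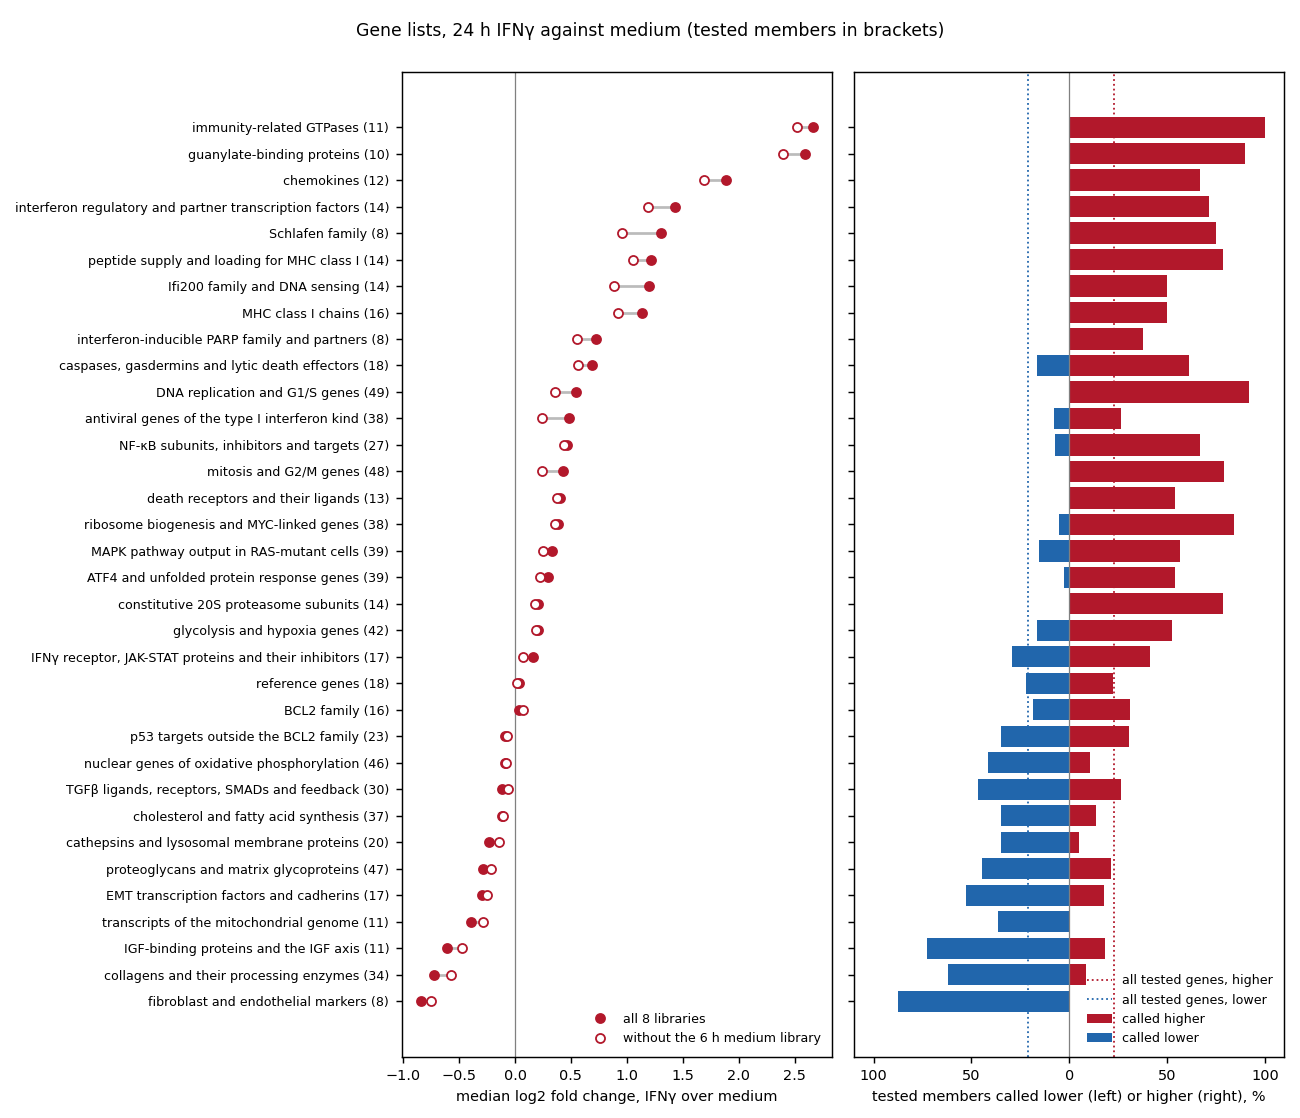
Median log2 fold change of 24 h IFNγ over medium for 34 gene lists (left; filled with all 8 libraries, open without the 6 h medium library) and the percentage of tested members called higher or lower (right), with dotted lines at the 22.7% and 21.2% of all tested genes. Among these 34 of the 52 lists, GTPases lie at the top and collagens and stromal markers at the bottom. The Ly6 list, with a higher median of 2.88 over 4 tested genes, is not drawn. The G1/S and mitosis lists keep their side but move toward 0 without the 6 h medium library.

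The precision differed between genes. Among genes changed at least 2-fold with separate groups, the smallest standard errors were those of Cttnbp2nl (1.13, SE 0.0525), Tasor2 (1.08, SE 0.0623), Rmdn3 (1.26, SE 0.0628), Cnnm2 (-1.0, SE 0.0783), Gclm (1.04, SE 0.0789) and Lap3 (1.15, SE 0.0792). Cttnbp2nl, whose product binds cortactin, had 329.7, 304, 350.4 and 393 CPM after IFNγ, against 159, 135, 168 and 165 CPM after medium. Cnnm2, linked to magnesium transport, had 28.5, 29.6, 26.6 and 26.1 CPM after IFNγ, against 54.5, 57.0, 55.0 and 55.1 CPM after medium. Both differences exceeded the spread within either group.

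Whether the hours in medium before the stimulus changed the response was tested as the difference of the slopes on log2 hours. By edgeR 0 genes (0%) passed, 284 had an unadjusted p below 0.05, and DESeq2's Wald test called 1. The count was 475 when the 2 h medium library was left out and was 0 or 1 when any of the other 7 was. The list medians within each duration were alike for the GTPases, between 2.42 and 2.76 for the immunity-related ones. Those of the G1/S genes and the collagens were farthest from 0 at 6 h, where the medium library stands apart (1.2 and -1.11, against 0.33 to 0.43 and -0.5 to -0.37 at the other durations).

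**Figure D4:**
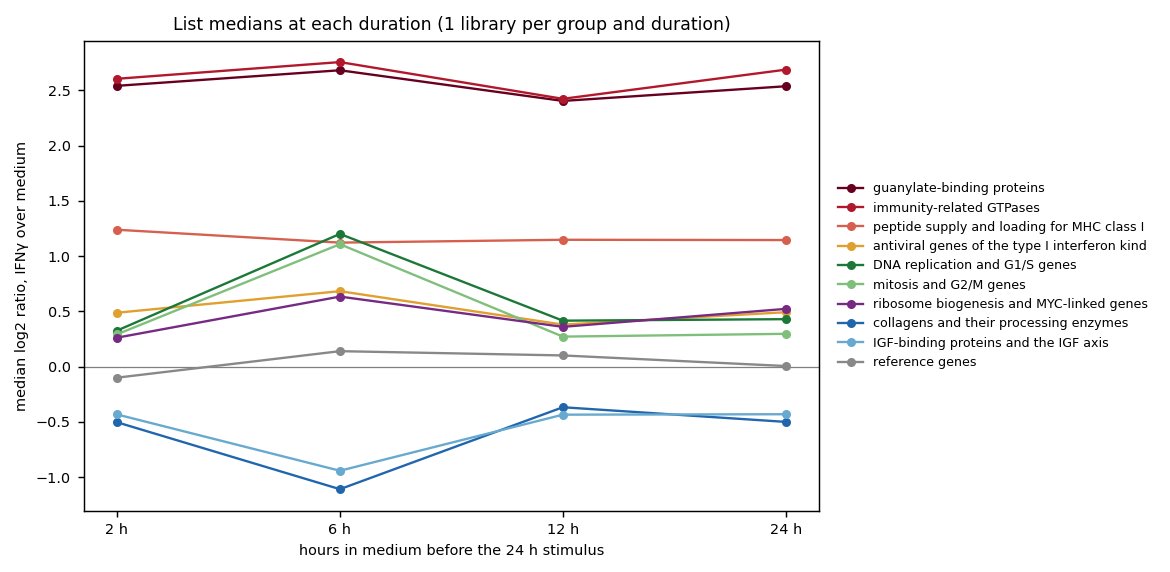
Median over the tested members of 10 gene lists of the log2 ratio of the IFNγ library over the medium library with the same hours in medium; each point rests on 1 library per group. The GTPase and peptide loading lists are flat, while the G1/S and mitosis lists peak and the collagen and IGF lists dip at 6 h.

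The same 24 h of IFNγ was also given to cells that had first had TGFβ (10 ng/ml) for the same hours in place of medium, with 4 libraries each of TGFβ then IFNγ and TGFβ then medium. The effect in medium-first cells minus that in TGFβ-first cells was called higher for 11 genes (0.0737%) and lower for 48 (0.321%), and for 88 in all without the 6 h medium library. These counts were unstable: the total of 59 became 201 without the 2 h medium library and 225 by DESeq2. It was 34, 36 and 36 without the 2, 6 or 24 h library of medium then IFNγ, 38 and 32 without the 2 or 12 h library of TGFβ then IFNγ, and 31 and 32 without the 6 or 24 h library of TGFβ then medium. Tnnt2 was the clearest case. It averaged 52.0 ± 5.04 CPM after medium then IFNγ and 152 ± 8.53 CPM after medium alone (SD, n = 4 each), and 510.0 ± 25.1 CPM after TGFβ then IFNγ and 447 ± 39.0 CPM after TGFβ then medium, a difference of effects of -1.74, SE 0.133, adjusted p = 6.97e-08. Fgf2, a growth factor, fell after medium (-1.67) and stood at -0.12 after TGFβ, a difference of -1.54, SE 0.189, adjusted p = 1.56e-04. Ass1, the enzyme that makes argininosuccinate, fell by 0.89 in medium-first cells and rose by 0.62 in TGFβ-first cells (difference -1.51, SE 0.205, adjusted p = 4.35e-04). Megf10 fell in both, by 3.26 and 1.41 (difference -1.85, SE 0.323, adjusted p = 0.00643). Ntn1, netrin 1, rose in both, less in medium-first cells (0.67 and 2.4; difference -1.73, SE 0.282, adjusted p = 0.00298). Tnfrsf11b, osteoprotegerin, a decoy receptor for TRAIL, did not pass in medium-first cells (0.51) and rose by 3.18 in TGFβ-first cells (difference -2.67, SE 0.587, adjusted p = 0.0448).

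The genes with a higher effect in medium-first cells differed by less than 2-fold. Cavin3, a caveola protein, Lmo7, a junctional protein, and the mitochondrial transporter gene Abcb10 had differences of 0.8, 0.76 and 0.57, and Oaf, Itpk1 and Ccdc181 of 0.54, 0.54 and 0.51. Abcb10 was not called without the 6 h medium library, and Ccdc181 rose by 0.25 in medium-first cells with all libraries and stood at 0.13 without it. Of the interferon-response genes above, Cxcl9 had 1.71 (adjusted p = 0.506) and Gbp4 -0.98 (adjusted p = 0.565), neither past the threshold. List medians of the difference of effects were -1.73 for guanylate-binding proteins, -1.66 for immunity-related GTPases, -1.39 for the Ifi200 list and -1.28 for PARP genes. They were -1.22 for Schlafen, -1.18 for antiviral, -0.92 for MHC class I, -0.81 for peptide loading and -0.17 for chemokine genes. The median over all tested genes was 0.00107. In these lists 0 members were called higher and 1, an antiviral gene, lower.

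**Figure D5:**
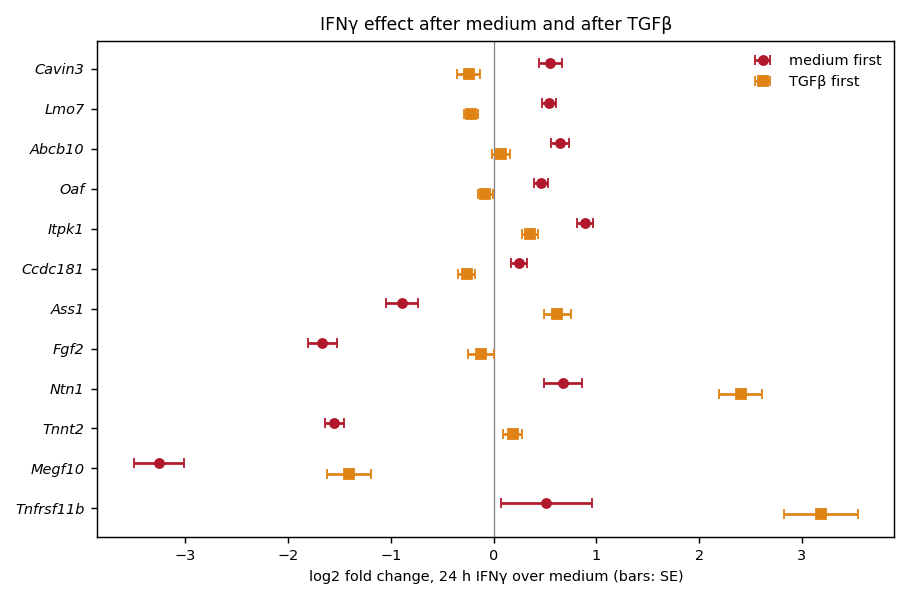
Log2 fold change of 24 h IFNγ over medium in cells kept in medium beforehand (red circles) and in cells given TGFβ beforehand (orange squares) for the 12 genes with the largest differences in either direction; bars are SE. Tnnt2, Fgf2 and Ass1 are below 0 in medium-first cells and near or above 0 in TGFβ-first cells, and Ntn1 and Tnfrsf11b are farther above 0 in TGFβ-first cells.

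The 4 libraries with IFNγ present at harvest were also set against the 4 in which IFNγ had been given first for 2 to 24 h and then withdrawn for 24 h. Of the tested genes 3104 were higher (20.8%) and 3105 lower (20.8%) with IFNγ present. This contrast shares its IFNγ libraries with the main one, so the values stand side by side only. Cxcl9 averaged 131 ± 17.8 CPM with IFNγ present, 0.552 ± 0.360 CPM after withdrawal and 0.185 ± 0.144 CPM in medium alone (SD, n = 4 each). Gbp4 had 357 ± 54.3, 8.28 ± 2.36 and 3.78 ± 0.606 CPM in the same order, Apol6 40.4 ± 6.62, 0.438 ± 0.294 and 0.127 ± 0.0379 CPM, and Batf2 65.2 ± 12.5, 0.482 ± 0.304 and 0.225 ± 0.173 CPM. On the lower side, Cd33 had 1.10 ± 0.322 CPM with IFNγ present, 9.51 ± 1.75 CPM after withdrawal and 7.17 ± 0.502 CPM in medium, and Ncam1, a neural adhesion molecule, 10.3 ± 3.01, 49.0 ± 9.31 and 49.0 ± 20.0 CPM. These 6 genes were taken from the highest and lowest of that contrast, so their levels are a description.

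Against 24 h of TGFβ, 3145 genes were higher after IFNγ (21.1%) and 3055 lower (20.5%), again with the same IFNγ libraries. Gbp10 averaged 44.8 ± 6.81 CPM after IFNγ, 0.272 ± 0.230 CPM after TGFβ and 1.44 ± 0.249 CPM after medium. Cdh10, a cadherin of neurons, had 0.547 ± 0.225 CPM after IFNγ, 8.07 ± 0.558 CPM after TGFβ and 3.16 ± 0.423 CPM after medium, and Gdpd5 had 0.815 ± 0.248, 11.8 ± 2.24 and 3.22 ± 0.630 CPM in that order. Tfpi2, an inhibitor of plasmin and other proteases, was low after IFNγ and after medium (0.343 ± 0.210 and 0.557 ± 0.420 CPM) and 6.85 ± 0.894 CPM after TGFβ, so its difference of -4.23 between the cytokines came with no call against medium (-0.62, adjusted p = 0.327).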

How the data were processed

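Total RNA of the NMM line was made into stranded mRNA libraries with an xGen kit and sequenced on an Illumina instrument, per the labels' protocols. The submitters' processing notes name HISAT and GRCm38. The authors deposited raw counts per gene for 29 libraries in 1 table of 28229 genes, with 0 columns of no sample. No source used here gives the counting tool or says whether it used strand, and reads of overlapping antisense genes cannot be told apart. The analysis ran in R 4.3.3, using edgeR 4.0.16 and limma 3.58.1: TMM scaling, filterByExpr with a minimum count of 10 (14935 genes tested), and the quasi-likelihood test on all libraries with group and hours of the first stimulation as factors, which left 18 residual degrees of freedom. All libraries share 1 estimate of the spread. Genes were called at a Benjamini-Hochberg adjusted p below 0.05. SE was the log2 fold change divided by the square root of F. CPM used TMM-scaled library sizes, and log2 CPM a prior count of 2. The slope model had 14 residual degrees of freedom. DESeq2 1.42.0 was an alternative, as were other scaling, no filter on low counts, no duration term, fewer groups and leaving out each library. The tests were checked on simulated data. Counting intervals are exact binomial at 95%, and intervals and floors cover counting error only.

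Members, gene lists and tests were chosen with earlier results of these data known. Genes named are anchors of the IFNγ response, the 12 highest and 12 lowest called genes with at least 5 CPM, the extreme called members of each list with up to 2 more, the 6 highest and lowest of each further contrast, and the 6 with the smallest SE at 2-fold or more. A rule based on gene length was not applied, since no length was used here. Complete lists and the genes named as not passing (Gbp3, Psmb5, Irf3, Irf7, Irf9) were chosen after their values were seen. Some genes that the rule selects are not reported here. Promoter windows were matched by symbol.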

Additional observations from a re-analysis of the deposited data

Results flagged for a closer look

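Most of what stood out was 1 library. Among the 4 libraries of a group, a value was singled out when its gap to the nearest other was too large a part of the group's range (above Dixon's 95% critical value). Groups with a value of at least 1 CPM were checked over 52 genes and the mitochondrial share. Of these 88 groups 20 had a value singled out, 17 of them in the 6 h medium library. Chance gives about 1 in 20 groups only for genes picked without regard to these libraries, so that rate does not apply here. The genes were anchors, the highest and lowest of the main contrast and those with the smallest SE. The main contrast itself used the 6 h medium library. Values of 1 library are also not independent of each other.

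In the 6 h medium library some of these genes lay above the other 3 medium libraries. Igfbp5 stood at 4064 CPM (428 to 568 in the others), Prg4 at 51.0 (1.58 to 2.21), Sod3 at 51.8 (4.14 to 6.12), Aox3 at 27.2 (2.56 to 4.07), Cpm at 185 (33.2 to 40.3) and Megf10 at 115 (37.7 to 45.8). Pde3a stood at 27.5 CPM (6.42 to 8.41), Tmem119 at 36.4 (8.14 to 11.6), H19 at 18.1 (3.49 to 4.94), Gxylt2 at 21.1 (8.36 to 9.51), Penk at 143 (64.6 to 67.7) and Nras at 106 (90.4 to 92.1). Others lay below. Gbp2 stood at 97.9 CPM (212 to 233), Tap1 at 90.5 (137 to 146), Lap3 at 106 (148 to 155) and Mpeg1 at 7.22 (12.1 to 12.6). The library's mitochondrial share of 1.24% lay above the 0.841% to 0.868% of the others.

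Outside that library, Nos2 stood at 8.57 CPM in the 12 h IFNγ library, against 0.336 to 1.06 CPM in the other IFNγ libraries, and Gbp4 at 4.69 CPM in the 12 h medium library, against 3.38 to 3.54 CPM in the other medium libraries. Tap1 had 343 CPM in the 2 h IFNγ library and 338 to 339 CPM in the others, a gap that is small beside its difference from medium.

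The effect of IFNγ differed between medium-first and TGFβ-first cells for the genes named in the report, by the test of the difference itself (edgeR's quasi-likelihood test). On the log2 scale, medium-first minus TGFβ-first, Tnfrsf11b differed by -2.67, Megf10 by -1.85, Tnnt2 by -1.74, Ntn1 by -1.73, Fgf2 by -1.54 and Ass1 by -1.51. Cavin3 differed by 0.80, Lmo7 by 0.76, Abcb10 by 0.57, Oaf by 0.54, Itpk1 by 0.54 and Ccdc181 by 0.51. How many such genes passed depended strongly on the libraries used, as given below.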

How the results depend on the processing

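The main counts, 3388 genes higher and 3159 lower, became 3356 and 3190 with median-of-ratios size factors, 3037 and 2799 without a filter on low counts, 3315 and 3164 with DESeq2, and 2474 and 2482 with only the 8 libraries in the fit. Leaving out 1 library gave 2973 to 3326 higher and 2781 to 3098 lower. The contrast with withdrawn IFNγ gave 5313 to 5793 genes and that with TGFβ 5498 to 5760 when 1 library was left out. The 59 genes whose effect differed after TGFβ became 114 without the filter, 225 with DESeq2, 15 with only the groups of the contrast, and 31 to 201 when 1 library was left out; the cause was not tested. The slope on hours gave 0 genes in the main fit, 1 without the filter, 1 with DESeq2, and 0 to 475 when 1 library was left out, the highest without the 2 h medium library. Of 3944 values of 232 genes taken by the naming rule under other settings, 3711 stayed called or stayed not called. Another 231 kept direction but missed the threshold, and 2 newly passed (B2m and Ctla2a). With a call in either fit, 0 changed direction. Changes of sign in genes called in neither fit were not counted apart and fall within the 3711. Counts were low for Ciita, Ubd, Serping1, Ly6i, Itga8 and Arg1.

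The main fit holds the hours of the first stimulation as a replicate block, as the design pairs libraries by hours. Deviations of libraries with the same hours correlated at 0.00158, 0.233, 0.0526 and 0.138 for 2, 6, 12 and 24 h, so the pairing is weak in the data. Without the replicate block 2655 genes were higher and 2592 lower, and 16 genes differed after TGFβ. The slope model has no such fit, since hours are its variable.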

Other observations

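The share of genes called differed by gene type in the authors' annotation. Of 12078 tested protein-coding genes 51.1% were called, with 3209 higher and 2957 lower after IFNγ. Long intergenic noncoding RNAs were called in 30.5% of 338 cases, 50 higher and 53 lower. Processed pseudogenes, which share sequence with their parent genes, were called in 5.62% of 1584 cases. Antisense genes leaned lower, with 18 higher and 50 lower among 282 tested. Whether the counting used strand is not given in the sources used here, and reads of such genes and of the genes they overlap cannot be told apart.

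Mrc1, a macrophage mannose receptor, was the leukocyte marker called higher after IFNγ among 4 tested.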
